A study of Mus musculus with 5 samples.

Results

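Transcripts of 44 genes that encode cyclins, cyclin-dependent kinases (CDKs), CDK inhibitors and their close regulators were described in mature CD8 single-positive (SP) thymocytes, T cells of the killer lineage in the last stage before they leave the thymus. The genes were taken by symbol from the deposited count tables, which hold 35976 genes, and all 44 had a row; 42 passed the filter on low counts, while the inhibitor genes Cdkn2a and Cdkn2b did not. Cells had been purified by flow cytometry from the thymus of Runx3 +/+ mice (2 libraries) and of Runx3 +/WRPW mice (3 libraries), which carry a normal Runx3 allele and an allele named WRPW. No other allele or treatment is named for either group, and age, strain and the number of animals per library are not in the labels, and the p-values thus reflect only how far these libraries vary, which may be technical variation. Runx3 is the Runt-family transcription factor of the CD8 lineage, and WRPW is the name of a short peptide motif by which some repressors bind Groucho/TLE corepressors.

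As background, a CDK is active only when a cyclin is bound. D-type cyclins with Cdk4 and Cdk6 drive cells through G1 by phosphorylating the retinoblastoma family, cyclin E with Cdk2 starts S phase, cyclin A acts in S phase and G2, and cyclin B with Cdk1 drives mitosis. The INK4 proteins (Cdkn2a to Cdkn2d) block Cdk4 and Cdk6, and the CIP/KIP proteins, such as p27 (Cdkn1b), bind cyclin-CDK complexes more widely. Mature SP thymocytes are mostly resting cells with a phase of proliferation late in their maturation.

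Total counts were 15715242 to 43758550 per library. Runx3 +/WRPW library 2 stood apart, with a count at 27414 genes against 17237 to 18967 in the other libraries, and members that rest on it are named with their values. Runx3 itself was at 273 and 357 CPM (counts scaled to library size) in Runx3 +/+ and at 394, 341 and 422 CPM in Runx3 +/WRPW and did not pass the test; counts per gene do not tell the alleles apart. The 6 markers of CD8 SP thymocytes, Cd8a among them, summed to 6924 and 6908 CPM in Runx3 +/+ and to 5916 to 6560 in Runx3 +/WRPW, and 0 of 6 passed the test in edgeR (3 of 6 at an unadjusted p under 0.05). Of the 8 markers of double-positive or immature thymocytes, a population that holds dividing cells, 6 were tested and 1, Dntt, fell. Their summed level was 50.2 and 54.4 CPM in Runx3 +/+ and 31.2 to 44.1 CPM in Runx3 +/WRPW, with Ptcra at 0 in both Runx3 +/+ libraries and Cd4 at 0.467 and 5.36 CPM in them. Of B cell markers, Cd79b fell, from 7.57 and 7.55 CPM in Runx3 +/+ to 2.19, 1.81 and 1.79 CPM in Runx3 +/WRPW. The part of these cells in the results below was not tested. Macrophage, erythroid and natural killer markers summed to at most 0.639 CPM in Runx3 +/+. Runx3 +/WRPW library 2 had the highest sums for markers of macrophages (3.99 CPM), dendritic cells (8.53 CPM) and thymic epithelium (13.8 CPM). These were at most 0.552, 2.57 and 5.12 CPM in the other libraries. The sums in library 2 rested on some members of each list and not on others. There Csf1r had 41 counts and Lyz2 2, Flt3 97 and Itgax 0, and Foxn1 75 and Krt8 0. Whether such cells were in library 2 was not tested.

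Promoters of the G2/M genes are known for a cell-cycle genes homology region (CHR), the short site through which the MuvB complex acts, often beside CCAAT boxes. The RefSeq table on GRCm38.p6 gave a promoter (250 bases before to 50 after a start) for 33 of the 44 genes, 38 promoters in all. The first set below shows 150 bases that end just before the start, for Cdk1 and Ccnf, whose transcripts fell, and for Cdk4, whose transcripts did not pass the test. They lie at chr10:69352913-69353062 (minus strand), chr17:24251410-24251559 (minus strand) and chr10:127063385-127063534 (plus strand). Capitals mark CHR letters, which are TTTGAA and also TTCGAA, then CCAAT boxes, and E2F letters (TTTGGCGC, TTTCGCGC, TTTCCCGC and TTTGCCGC), each on either strand.
Cdk1: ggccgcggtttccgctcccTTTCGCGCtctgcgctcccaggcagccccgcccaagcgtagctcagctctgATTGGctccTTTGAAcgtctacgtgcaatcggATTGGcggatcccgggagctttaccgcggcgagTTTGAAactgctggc
Ccnf: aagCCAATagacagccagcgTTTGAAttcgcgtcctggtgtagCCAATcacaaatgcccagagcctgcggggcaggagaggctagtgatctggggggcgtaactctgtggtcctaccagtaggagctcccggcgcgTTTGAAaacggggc
Cdk4: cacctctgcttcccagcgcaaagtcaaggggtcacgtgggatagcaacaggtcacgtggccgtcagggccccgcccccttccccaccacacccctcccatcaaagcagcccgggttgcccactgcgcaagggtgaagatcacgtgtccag
The Cdk1 stretch holds 2 CHR matches, the nearest beginning 15 bases before the start, with 2 CCAAT boxes and 1 E2F match. That of Ccnf holds 2 CHR matches, the nearest 14 bases before the start, and 2 CCAAT boxes. The Cdk4 stretch holds 0 matches of the 3 motifs.

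A second set shows 30 bases around the CHR nearest the start in 3 more genes that fell, at chr3:89418291-89418320 (minus strand), chr9:70421533-70421562 (minus strand) and chr2:131186943-131186972 (plus strand).
Cks1b: gcgggcggtgtgTTTGAAagcgaggccaaa
Ccnb2: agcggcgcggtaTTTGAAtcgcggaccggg
Cdc25b: ccgctgttatttTTCGAAtatataaggagg
In Cks1b the CHR begins 17 bases before the start, in Ccnb2 at base 5 and in Cdc25b at base 8 after it. CHR letters stood in 6 of 16 promoters of genes that fell, in 5 of 22 promoters of the other genes, and in 19.2% of all 32851 promoters of the table. Genes that fell without CHR letters include Ccnb1, Mybl2, Ccne1, Cdkn2c and Cdkn2d, while Lin54 and Skp2, which did not pass, had them. Of the genes that fell, Ccna2, Ccne2 and Foxm1 had no promoter to search. A CHR in the 20 bases before the start was found in 3 of the 38 promoters, those of Cdk1, Ccnf and Cks1b, and in 1.14% of all promoters. CCAAT boxes stood in 12 of 16 promoters of genes that fell, in 9 of 22 of the others and in 37.4% of all. E2F letters were in 3 of 16 and 1 of 22, against 2.26% of all, and RUNX letters (TGTGGT and also TGCGGT, either strand) in 2 of 16 and 7 of 22, against 22.4% of all. Matches of different motifs overlapped 0 times in these 38 promoters. A match is a string of letters and not a measured binding site.

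Of the 42 genes tested, 17 fell and 1 rose in Runx3 +/WRPW, and 24 did not pass. The threshold was a p under 0.05 in edgeR's quasi-likelihood test after Benjamini-Hochberg adjustment over 13666 genes, of which 7.33% fell and 6.24% rose (13.6% in all). The median log2 fold change (Runx3 +/WRPW over Runx3 +/+) was -0.26 over the 42 genes and 0.02 over all genes tested. In 24 of the 42 every Runx3 +/WRPW library lay below every Runx3 +/+ library, against 23.8% of all genes tested, and in 2 every one lay above, against 24.7%. By phase, the median was -0.05 for the 5 genes of G1, -0.92 for the 7 of S phase entry and S phase, and -1.82 for the 7 of G2/M. The difference between phases was not tested. In RNA from a bulk sort, fewer dividing cells and less RNA of these genes per cell cannot be told apart. General markers of proliferation behaved likewise: Mki67 had a log2 change of -2.97 ± 0.06 (SE), Top2a of -2.78 ± 0.07 and Pcna of -0.72 ± 0.10, and all 3 passed.

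**Figure D1:**
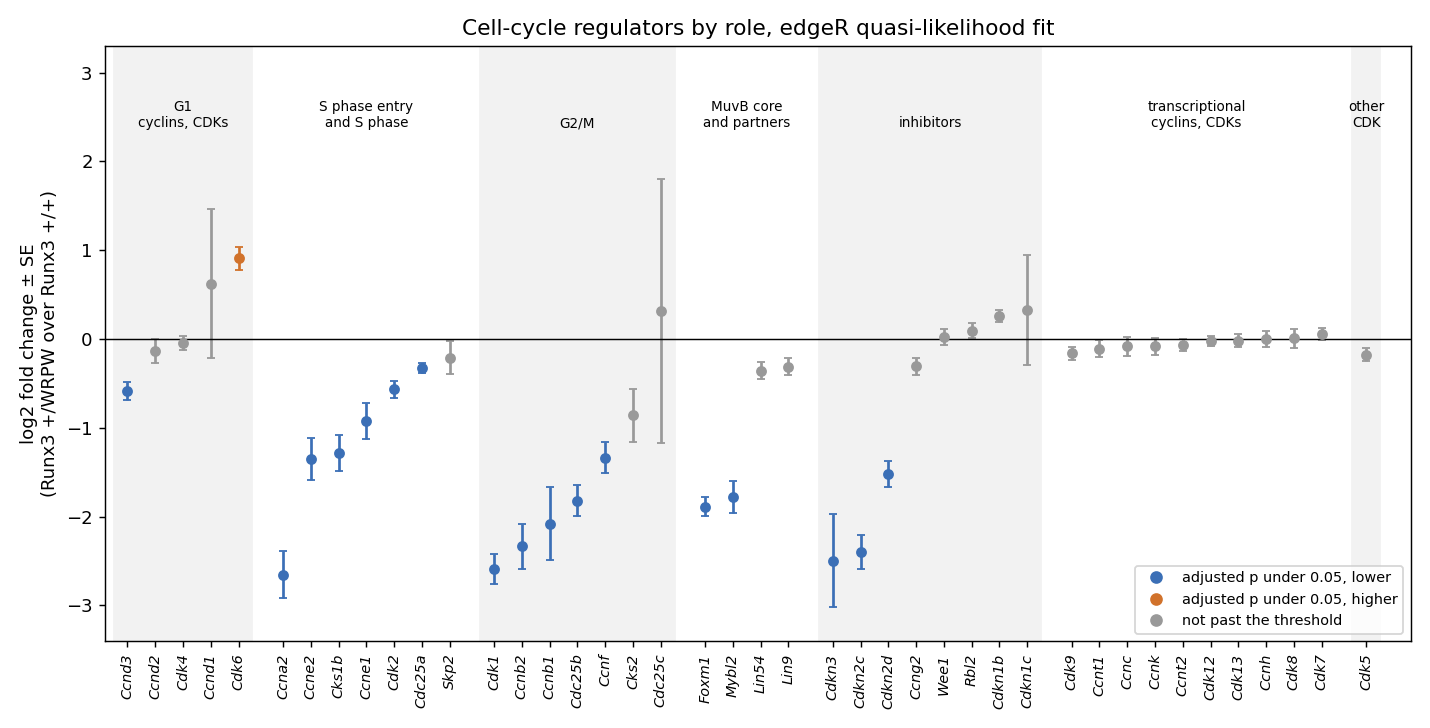
Log2 fold change (Runx3 +/WRPW over Runx3 +/+) with its standard error for the 42 genes tested, grouped by role, with blue for genes that fell, orange for the 1 that rose and grey for those that did not pass. Genes of S phase, G2/M and late MuvB partners reach -2.65, while the 10 transcriptional cyclins and CDKs lie between -0.16 and 0.06.

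Among the G1 genes, the D-type cyclins and their kinases differed from each other. Cdk6 rose and Ccnd3 fell, while Ccnd2 and Cdk4 did not pass the test. Cdk6 (chromosome 5, 3341004 to 3531008, mm10) had 185 and 164 CPM in Runx3 +/+ against 314, 291 and 379 CPM in Runx3 +/WRPW libraries 1, 2 and 3, on a scale adjusted by TMM factors, as are all CPM here. All 3 Runx3 +/WRPW libraries lay above both Runx3 +/+ libraries, and the fitted difference between genotypes was 1.88-fold (log2 0.91 ± 0.13, adjusted p = 0.00976). Ccnd3 (chromosome 17, 47505051 to 47599689), the cyclin D3 gene, needed for the expansion of immature thymocytes, was at 355 and 386 CPM against 218, 265 and 259.9 CPM. The genotypes did not overlap (log2 -0.58 ± 0.10, adjusted p = 0.0183). Both calls were lost without Runx3 +/+ library 1 (adjusted p = 0.107 for Cdk6 and 0.0957 for Ccnd3) and without Runx3 +/+ library 2 (adjusted p = 0.169 and 0.187), with log2 values of 0.82 to 0.97 for Cdk6 and -0.68 to -0.53 for Ccnd3 in these fits.

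Ccnd2, which encodes cyclin D2, was at 1238 and 1435 CPM in Runx3 +/+ and at 1292, 1025 and 1340.4 CPM in Runx3 +/WRPW, and the genotypes overlapped (log2 -0.13 ± 0.13, adjusted p = 0.563). Cdk4 was at 172 and 155 CPM against 164, 161 and 150.2 CPM (log2 -0.05 ± 0.07, adjusted p = 0.738). The counts of Cdk6 per count of Cdk4 were therefore 1.08 and 1.05 in Runx3 +/+ and 1.91, 1.81 and 2.52 in Runx3 +/WRPW. Per kilobase of exon, a rough scale for setting genes side by side, Ccnd2 was the highest of the 44 genes. It was at 142 CPM per kb in Runx3 +/+, against 42.2 for Ccnd3 and 0.113 for Ccnd1. Exon length here is the union of all annotated exons, and which transcripts these cells make was not tested. Rankings between genes on this scale are therefore approximate. Cdk4 stood at 50.4 CPM per kb and Cdk6 at 12.5, which became 48.8 and 23.4 in Runx3 +/WRPW. Of Cdk4, 19.7% of the exon length overlaps Tspan31 on the opposite strand, and reads of such a pair cannot be told apart if strand was not used in the counting. Like overlaps cover 30.65% of Cdkn1c, 23.4% of Ccnd1, 21.0% of Rbl2, 17.4% of Ccne2, 12.7% of Cdc25c and 12.5% of Ccna2. Ccnd1, the cyclin D1 gene, had 9 and 16 counts in Runx3 +/+ and 17, 28 and 9 in Runx3 +/WRPW, and the 28 were in library 2 (log2 0.62 ± 0.84, adjusted p = 0.679). Without that library Ccnd1 did not pass the filter on low counts and was not tested.

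**Figure D2:**
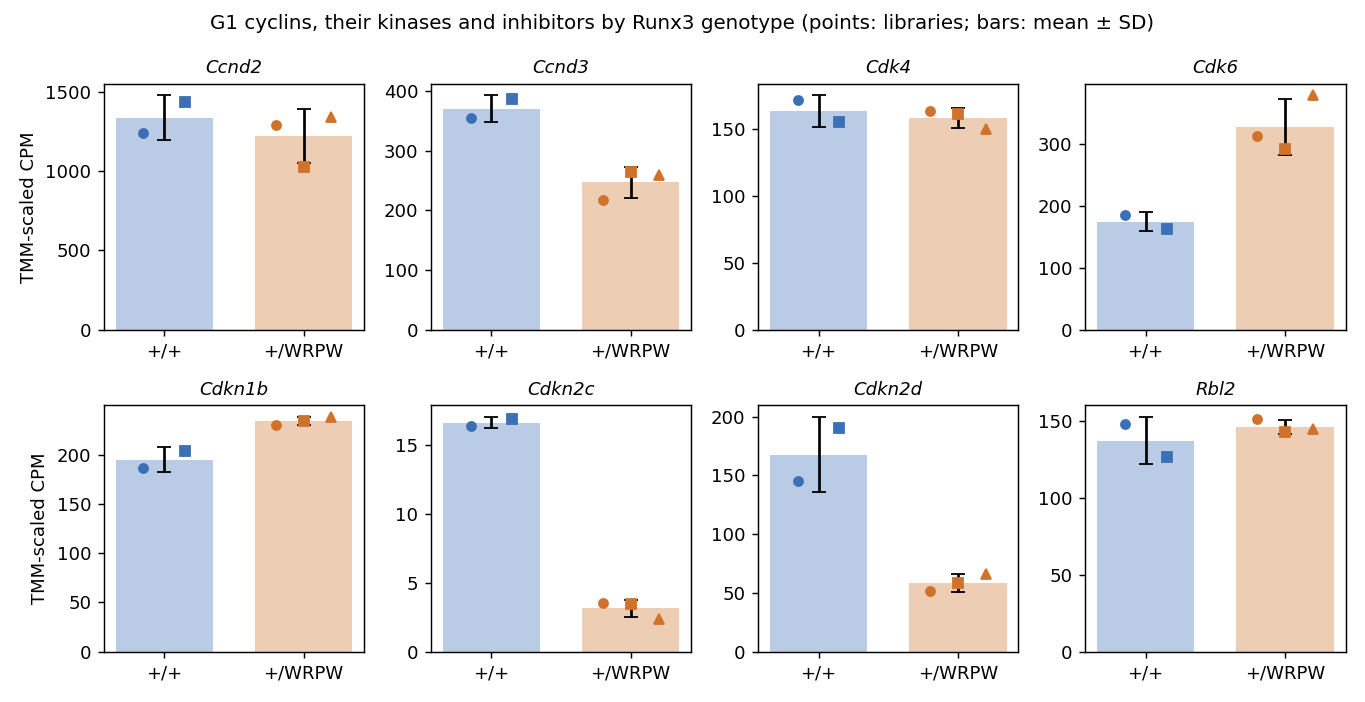
TMM-scaled CPM on linear axes from 0 for 4 G1 genes (upper row) and 4 inhibitors (lower row), with a point per library, bars for the mean and error bars for the SD (Runx3 +/+ n = 2, Runx3 +/WRPW n = 3). Cdk6 points rise above and Ccnd3, Cdkn2c and Cdkn2d points lie below the Runx3 +/+ range, while Ccnd2, Cdk4 and Rbl2 overlap.

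Of 7 genes of S phase entry and S phase, 6 fell and 0 rose (also 0 at an unadjusted p under 0.05 in edgeR, and 0 in DESeq2 and limma-voom); Skp2 did not pass. Their summed level was 241 and 240.8 CPM in Runx3 +/+ and 146, 147 and 149 CPM in Runx3 +/WRPW. Ccna2 (chromosome 3, 36564865 to 36573038), which encodes cyclin A2, was at 27.0 and 29.2 CPM against 2.95, 5.36 and 5.38 CPM. That was 6.30-fold lower (log2 -2.65 ± 0.26, adjusted p = 0.00332), and the highest Runx3 +/WRPW library was far under the lowest Runx3 +/+ library.

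Both cyclin E genes, which partner Cdk2 at the start of S phase, fell by less. Ccne1 was at 31.0 and 29.6 CPM against 16.8, 19.6 and 11.7 CPM, 1.89-fold lower (adjusted p = 0.0366). Ccne2 was at 5.46 and 5.48 CPM against 1.99, 2.43 and 2.02 CPM, 2.55-fold lower (adjusted p = 0.018). Per kilobase, Ccne1 was the more abundant of the pair in Runx3 +/+, at 11.4 against 1.57 CPM per kb. Their kinase gene Cdk2 went from 88.5 ± 5.10 (SD, n = 2) to 59.6 ± 5.62 CPM (SD, n = 3), 1.48-fold lower, and Cdc25a, the phosphatase that removes inhibitory phosphates from Cdk2, from 63.5 ± 1.06 to 50.7 ± 1.21 CPM, 1.25-fold lower. These gave adjusted p = 0.015 and 0.0207, and in neither gene did the genotypes overlap.

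Cks1b and Skp2 encode the parts of the SCF ubiquitin ligase that direct p27 to destruction. Cks1b was at 14.3 and 18.1 CPM in Runx3 +/+ and at 6.77, 7.97 and 5.29 CPM in Runx3 +/WRPW, 2.43-fold lower (adjusted p = 0.0124). Skp2 was at 8.31 and 9.27 CPM against 6.15, 8.22 and 8.56 CPM, so that the genotypes overlapped (log2 -0.21 ± 0.19, adjusted p = 0.511). Of the 6 calls in this group, Ccna2 alone held when Runx3 +/+ library 1 was left out and 0 held when Runx3 +/+ library 2 was. The number was 2 without Runx3 +/WRPW library 1 (Ccna2 and Cks1b), 6 without library 2 and 4 without library 3 (not Ccne2 and Cdc25a), while the medians stayed between -1.08 and -0.74.

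Of 7 genes of G2 and mitosis, 5 fell and 0 rose (also 0 in DESeq2, in limma-voom and at an unadjusted p under 0.05 in edgeR), and Cks2 and Cdc25c did not pass. Cdk1 (chromosome 10, 69335146 to 69352912), the mitotic kinase, whose promoter is printed above, was at 12.7 and 15.3 CPM in Runx3 +/+ and at 2.22, 2.62 and 2.16 CPM in Runx3 +/WRPW. It was 6.02-fold lower (log2 -2.59 ± 0.17, adjusted p = 0.00122). Of its cyclins, Ccnb2 (chromosome 9, 70407689 to 70421554) was at 13.3 and 17.8 CPM against 2.33, 3.99 and 3.08 CPM, 5.05-fold lower (adjusted p = 0.00426).

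Ccnb1 was low throughout, with 46 and 55 counts in Runx3 +/+ and 27, 7 and 10 in Runx3 +/WRPW, or 2.15 and 2.198 CPM against 0.617, 0.436 and 0.460 CPM (4.22-fold lower, adjusted p = 0.0261). Per kilobase it stood at 0.515 CPM in Runx3 +/+ against 10.1 for Ccnb2. Pseudogenes of both cyclin B genes are annotated, and how the counting treated reads that map to several places is not given in the sources used here, so both levels are uncertain. Cdc25b, a phosphatase that activates Cdk1, was at 39.7 and 59.2 CPM against 14.8, 12.6 and 14.4 CPM, 3.53-fold lower (adjusted p = 0.00328). Ccnf, an F-box protein named for its cyclin fold, was at 15.2 and 12.2 CPM against 4.82, 5.23 and 6.26 CPM, 2.52-fold lower (adjusted p = 0.00734). In 6 of the 7 genes of this group, called or not, every Runx3 +/WRPW library lay below every Runx3 +/+ library, against 23.8% of all genes tested.

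Cks2, a small subunit of CDK complexes, was at 3.27 and 5.24 CPM against 2.31, 2.43 and 2.30 CPM, without overlap but short of the threshold (log2 -0.86 ± 0.30, adjusted p = 0.114). Cdc25c, a phosphatase that activates Cdk1 at the entry into mitosis, had 25 and 35 counts in Runx3 +/+ and 9, 75 and 2 in Runx3 +/WRPW. The 75 counts were in library 2, and its log2 value was 0.32 ± 1.48 with that library (adjusted p = 0.916) and -2.96 without it (adjusted p = 0.0268). Without library 2, 6 of the 7 genes of this group were therefore called lower. The number called was 3 without Runx3 +/+ library 1 (Ccnb1 and Ccnf lost), 2 without Runx3 +/+ library 2 (Ccnb2 lost as well) and 4 without Runx3 +/WRPW library 1 or 3 (Ccnb1 lost).

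**Figure D3:**
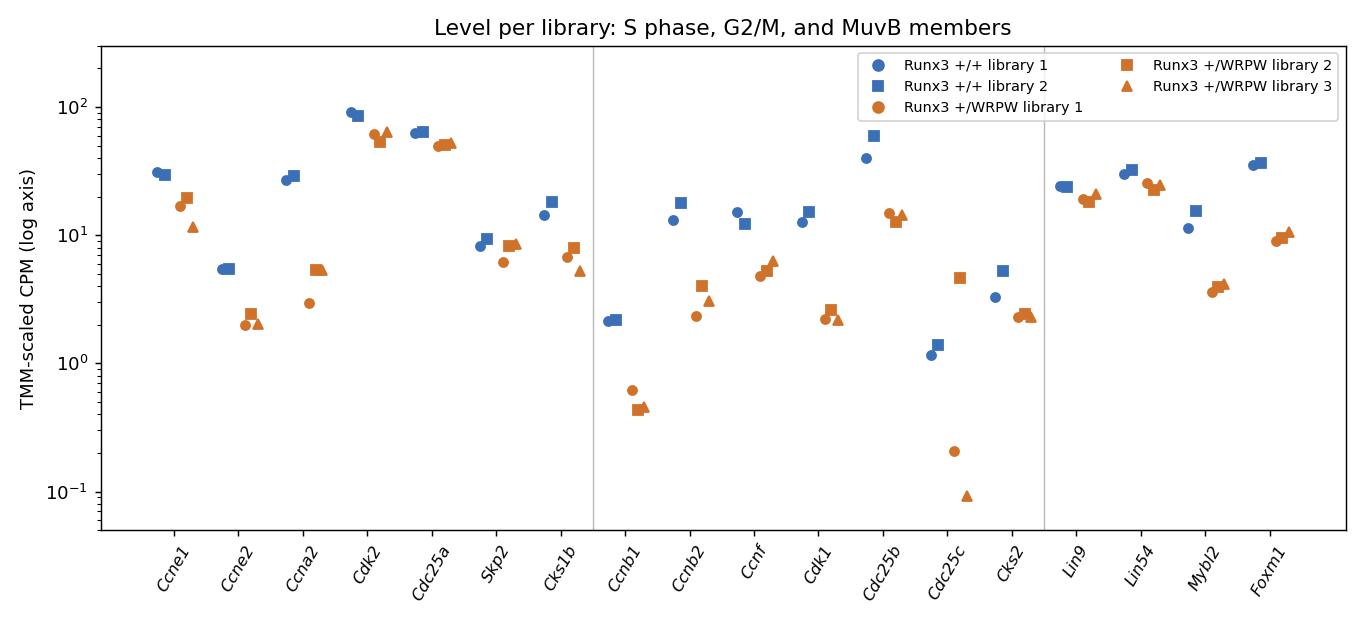
TMM-scaled CPM on a log axis for the 7 S phase genes, the 7 G2/M genes and the 4 MuvB genes, with a point per library. Blue points (Runx3 +/+) lie above orange points (Runx3 +/WRPW) for all genes but Skp2, where the genotypes overlap, and Cdc25c, where Runx3 +/WRPW library 2 stands at 4.67 CPM.

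The MuvB core joins the B-Myb protein and FoxM1 to switch on the genes of G2 and mitosis, and joins p130 (Rbl2) in resting cells to silence them. Both late partners fell, and both core members tested did not pass. Foxm1 (chromosome 6, 128362994 to 128375886) was at 35.03 and 36.81 CPM in Runx3 +/+ and at 9.01, 9.59 and 10.6 CPM in Runx3 +/WRPW, 3.70-fold lower (log2 -1.89 ± 0.11, adjusted p = 0.000819). Mybl2, which encodes B-Myb, was at 11.3 and 15.5 CPM against 3.61, 3.92 and 4.19 CPM, 3.44-fold lower (adjusted p = 0.00352). Its call was lost without Runx3 +/+ library 2 (adjusted p = 0.0638).

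Lin9 was at 24.0 ± 0.200 CPM (SD, n = 2) against 19.3 ± 1.35 CPM (SD, n = 3), with a log2 value of -0.31 ± 0.10 (adjusted p = 0.0924). Lin54, the subunit that binds the CHR, was at 31.1 ± 1.30 against 24.3 ± 1.63 CPM (log2 -0.36 ± 0.09, adjusted p = 0.058). The genotypes did not overlap in either gene, and Lin54 passed in DESeq2 (adjusted p = 0.0364) and with a stricter filter (adjusted p = 0.0461). Rbl2, the resting-state partner, was at 148 and 126 CPM against 151, 143 and 144 CPM and overlapped (log2 0.09 ± 0.08, adjusted p = 0.517).

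Among 10 inhibitors of division, 3 fell and 0 rose of 8 tested, 5 did not pass, and the median was -0.14, against -0.86 for the 19 activators of G1, S phase and G2/M, of which 12 fell and 1 rose. At an unadjusted p under 0.05 in edgeR, 1 inhibitor, Cdkn1b, was higher, and it was the only inhibitor called higher in DESeq2 and limma-voom. The members that fell were 2 of the 4 INK4 genes and Cdkn3. Cdkn2c (chromosome 4, 109660876 to 109666756), which encodes p18, was at 16.3 and 16.9 CPM in Runx3 +/+ and at 3.52, 3.49 and 2.39 CPM in Runx3 +/WRPW. It was 5.29-fold lower (log2 -2.40 ± 0.19, adjusted p = 0.00178). Cdkn2d (chromosome 9, 21288459 to 21291421), which encodes p19, was at 145 and 190.2 CPM against 51.3, 58.2 and 66.2 CPM, 2.87-fold lower (log2 -1.52 ± 0.15, adjusted p = 0.00325).

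In both INK4 genes every Runx3 +/WRPW library was below every Runx3 +/+ library, and both calls held in each of the 5 fits that left out a library. Per kilobase, Cdkn2d was the second most abundant of the 44 genes in Runx3 +/+, at 106 CPM per kb, and it went to 37.2 in Runx3 +/WRPW, while Cdkn2c went from 6.19 to 1.17. As background, p18 transcripts are known to accumulate in cycling cells although the protein blocks Cdk4 and Cdk6. Cdkn2a and Cdkn2b were near 0, with 5, 3, 0, 6 and 0 and with 1, 0, 0, 12 and 2 counts in the Runx3 +/+ libraries 1 and 2 and the Runx3 +/WRPW libraries 1, 2 and 3. The larger counts of both were in Runx3 +/WRPW library 2, and 3 counts correspond to 0.0686 to 0.191 CPM per library.

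Cdkn3 encodes a phosphatase that removes the activating phosphate of CDKs, and its transcript is known to peak in mitosis. It had 26 and 47 counts in Runx3 +/+ and 10, 6 and 5 in Runx3 +/WRPW, 5.64-fold lower as fitted (adjusted p = 0.0306), and the call held in 1 of the 5 fits that left out a library, the one without Runx3 +/WRPW library 2. Adjusted p rose to 0.334 and 0.645 when Runx3 +/+ library 1 or 2 was left out, and to 0.104 and 0.088 when Runx3 +/WRPW library 1 or 3 was.

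Cdkn1b, which encodes p27, the main inhibitor of resting T cells, was at 186 and 204 CPM in Runx3 +/+ and at 230.0, 234 and 238 CPM in Runx3 +/WRPW. All 3 Runx3 +/WRPW libraries lay above both Runx3 +/+ libraries. The fitted difference between genotypes was 1.20-fold, just short of the threshold (log2 0.26 ± 0.07, adjusted p = 0.0563). It passed with upper-quartile factors (adjusted p = 0.034), in DESeq2 (0.00384), in limma-voom (0.0453) and with a stricter filter (0.0385), and did not in the other fits (adjusted p = 0.0636 to 0.460). The counts of Cdkn1b per count of Ccna2 were 6.87 and 6.99 in Runx3 +/+ and 78.0, 43.7 and 44.2 in Runx3 +/WRPW. This difference mostly reflects Ccna2, which had the lowest log2 value of the genes tested here (-2.65), and not Cdkn1b.

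Wee1, the kinase that holds Cdk1 inactive, was at 22.6 and 21.3 CPM against 22.4, 21.0 and 23.2 CPM (log2 0.02 ± 0.09, adjusted p = 0.914). Ccng2, an unusual cyclin that is high in resting cells, was at 113 and 137 CPM against 103, 95.5 and 105 CPM (log2 -0.30 ± 0.10, adjusted p = 0.0911). The genotypes did not overlap, and DESeq2 called it lower (adjusted p = 0.0445). Cdkn1c, the p57 gene, had only 6 to 16 counts per library, and no difference was detectable at this depth.

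**Figure D4:**
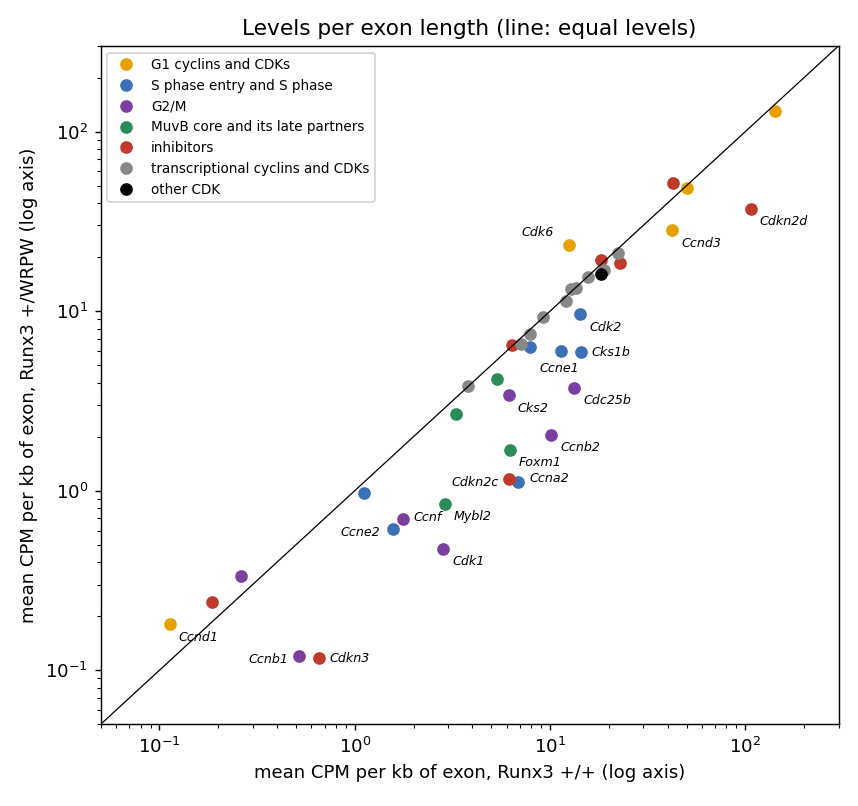
Mean level per kilobase of exon in Runx3 +/+ (x axis) against Runx3 +/WRPW (y axis), both log axes, for the 42 genes tested, coloured by role, with names for genes away from the line of equal levels. Ccnd2 and Cdkn2d are the highest in Runx3 +/+ at 142 and 106 CPM per kb; Cdkn2d lies below the line and Cdk6 above it.

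The cyclins and CDKs that act on RNA polymerase II are another branch of the family. Of 10 such genes 0 fell and 0 rose in edgeR, against 7.33% and 6.24% of all genes tested. Also 0 had an unadjusted p under 0.05, and 0 were called in DESeq2, limma-voom and each other fit. With 10 genes, a count of 0 cannot be told from the shares over all genes. The log2 values of the 10 genes ran from -0.16 to 0.06 with standard errors of 0.06 to 0.11. Their summed level was 884 and 902 CPM in Runx3 +/+ and 858, 839 and 893 CPM in Runx3 +/WRPW. Cdk7 and Ccnh, the kinase and cyclin that also activate the cell-cycle CDKs, were at 47.3 ± 1.67 against 49.2 ± 1.56 CPM and at 28.7 ± 0.257 against 28.7 ± 2.22 CPM (SD, n = 2 and n = 3). Cdk9, the elongation kinase, was at 87.3 ± 5.76 against 78.0 ± 3.83 CPM, with its cyclins Ccnt1 at 64.8 ± 8.69 against 60.1 ± 3.21 CPM and Ccnt2 at 148 ± 0.179 against 141 ± 7.43 CPM. Cdk8 and Ccnc, of the Mediator kinase module, had log2 values of 0.01 ± 0.11 and -0.08 ± 0.10. For Cdk12, Cdk13 and their cyclin gene Ccnk these were -0.02 ± 0.06, -0.02 ± 0.07 and -0.08 ± 0.09. Cdk5, a kinase best known from neurons, was at 39.4 ± 1.28 against 34.8 ± 1.54 CPM (log2 -0.18 ± 0.07, adjusted p = 0.173).

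Other genes of the pathway were read from lists of 6 groups. The edgeR counts of each group stand against 7.33% of all genes tested that fell and 6.24% that rose. Of 14 mitotic kinases and regulators of the anaphase-promoting complex (APC/C), 11 fell and 0 rose (0 also at an unadjusted p under 0.05 in edgeR, and 0 in DESeq2 and limma-voom), with a median of -1.20. Log2 changes were -2.91 ± 0.20 for the checkpoint kinase gene Bub1, -2.38 ± 0.17 for Bub1b, -2.47 ± 0.21 for the mitotic kinase gene Aurkb and -1.33 ± 0.11 for the APC/C activator Cdc20. With the replicate number as a block, 7 of the 14 fell. The number that fell was 7 with no filter on low counts, 6 and 3 without Runx3 +/+ libraries 1 and 2, and 7, 10 and 7 without Runx3 +/WRPW libraries 1, 2 and 3. Of these 4 genes, Aurkb lost its call without Runx3 +/+ library 2 (adjusted p = 0.052). Of 5 parts of SCF ligases, 0 passed in edgeR, DESeq2 or limma-voom and 0 had an unadjusted p under 0.05; the smallest p was that of Rbx1 (log2 -0.15 ± 0.06, adjusted p = 0.179).

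Of 9 partners of the DREAM complex, the silencing form of MuvB, 0 fell and 1 rose, and 1 was lower and 1 higher at an unadjusted p under 0.05 in edgeR. DESeq2 called 1 lower and limma-voom 0 lower. The gene that rose was Tfdp2, a dimer partner of E2F factors (log2 0.41 ± 0.07, adjusted p = 0.0183). It lost its call in the fits without Runx3 +/+ library 1 or 2 or Runx3 +/WRPW library 1 or 3 (adjusted p = 0.0614 to 0.161). Among 11 partners of the transcriptional kinases 2 fell and 1 rose by small amounts. Log2 values were -0.35 ± 0.07 for Hexim1, an inhibitor of Cdk9, -0.25 ± 0.06 for Med12, which activates Cdk8, and 0.36 ± 0.07 for Cdk10. The calls of Med12 and Cdk10 were lost whichever library was left out, and that of Hexim1 in each case but the fit without Runx3 +/WRPW library 2; adjusted p reached 0.273, 0.162 and 0.183. Med12 was also lost with RLE factors (adjusted p = 0.0531), with upper-quartile factors (0.053) and with no filter (0.236), and Cdk10 with no filter (0.0542).

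Of 14 tested among 16 less studied cyclins, CDKs and their binding proteins, 0 fell and 1 rose, with 1 lower and 3 higher at an unadjusted p under 0.05 in edgeR, 1 called lower in DESeq2 and 0 in limma-voom. Cdk17 rose (log2 0.35 ± 0.09, adjusted p = 0.0497), and leaving out any library other than Runx3 +/WRPW library 2 ended its call (adjusted p = 0.0784 to 0.401), as did RLE factors (0.0577) and no filter on low counts (0.158). Quiescence factors, proteins that hold T cells at rest, fell in 3 of 9 and rose in 0 (1 at an unadjusted p under 0.05 in edgeR, 1 called in DESeq2 and 0 in limma-voom). The 3 were Klf2, at a log2 change of -2.30 ± 0.27, the antiproliferative gene Btg2, at -0.74 ± 0.14, and Foxo1, at -0.67 ± 0.08. Of these, 2 fell without Runx3 +/+ library 1 (Foxo1 lost, adjusted p = 0.0604) and 0 without Runx3 +/+ library 2 (adjusted p = 0.0583 to 0.112). Btg2 was also lost without Runx3 +/WRPW library 1 (adjusted p = 0.0692) or 3 (adjusted p = 0.0712), and 3 fell without library 2.

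Of the 18 calls among the 44 genes, 5 held in each of the 5 fits that left out a library: Cdk1, Cdc25b, Foxm1, Cdkn2c and Cdkn2d. The number that fell was 8 and 5 without Runx3 +/+ libraries 1 and 2, fits in which the lone Runx3 +/+ library was assumed to vary like the other genotype, and 11, 18 and 13 without Runx3 +/WRPW libraries 1, 2 and 3. The log2 values of all 18 called genes kept their sign in every fit.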

How the data were processed

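RNA was extracted from sorted cells with a column kit and made into libraries with the NEBNext kit, per the labels' protocols. The deposited values are raw read counts per gene symbol, with no normalization. The submitters' processing notes name mm10 and, as tools, HISAT2 2.2.1, cutadapt 4.0, edgeR 3.36.0 and featureCounts 2.0.8, with strand, annotation and multi-mapping settings not given in the sources used here. The header of the file of Runx3 +/+ library 2 bears another number and that of Runx3 +/WRPW library 2 a generic name, and the sample records were followed. No pair of libraries agreed within sampling noise (smallest chi-square per gene 14.2).

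The contrast was fitted with edgeR 4.0.16 in R 4.3.3 (TMM, filterByExpr with a minimum count of 10, glmQLFit, glmQLFTest) on all genes, with p-values adjusted over the 13666 tested. Standard errors were taken as |log2 fold change| over the root of the F statistic. The pipeline was tested on simulated data. Positions and promoters are from RefSeq GRCm38.p6, the assembly of mm10, and exon lengths (union of exons) and overlaps from GENCODE M21. Other settings tried were DESeq2 1.42.0, limma-voom (limma 3.58.1), upper-quartile or RLE factors, no filter, a stricter filter (1 CPM throughout a genotype), the replicate number as a block and leaving out each library. All 44 genes are described; of each pathway list, up to 4 called genes with the smallest p-values are named, or the 1 with the smallest p-value. The summed level of the B cell markers is not reported here. Members and lists were chosen with earlier results of these data known. Counting error alone is covered by the floor of 3 counts.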

Additional observations from a re-analysis of the deposited data

How the results depend on the processing

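The number of genes called among all tested was 1855. It was 1079 with no filter on low counts (28583 genes tested, median log2 value 0.70, against 0.02), 754 with the replicate number as a block, 2705 in DESeq2 and 277 to 1431 in the fits that left out a library. The 17 falls among the 42 genes were 12 with the replicate block and 5 to 18 without a library; the 1 rise became 2 with upper-quartile factors, in DESeq2, in limma-voom and with the stricter filter (Cdkn1b added), and was 0 to 1 without a library. The deviations of libraries with the same number had r = -0.05 for number 1 and 0.00 for number 2. With 2 Runx3 +/+ libraries, their deviations are exact opposites, so this check cannot tell whether same-numbered libraries share a batch. The header of Runx3 +/+ library 2 also bears another number. The block took the calls of Ccne1, Ccne2, Cdc25a, Ccnb1 and Cdkn3. Among pathway genes named here it took those of Tfdp2, Hexim1, Med12, Cdk10, Cdk17 and Btg2 (adjusted p = 0.052 to 0.177). With no filter, the calls of Ccne2, Ccnb1 and Cdkn3 were lost. Each sign change was in a gene not called with all 5 libraries. Cdc25c had -1.86 in limma-voom, -0.21 with the block and -2.96 to 0.88 without a library. For Ccnh the value was -0.0044 with RLE factors, -0.0035 in DESeq2, -0.0049 with no filter, -0.057 with the block and -0.053 to 0.052 without a library. Wee1 had -0.012 and Cdk8 -0.0056 with the block, and Cdk12 0.0096 and Cdk13 0.014 with upper-quartile factors. Without a library, values ran from -0.020 to 0.77 for Cdkn1c, -0.028 to 0.054 for Wee1, -0.026 to 0.17 for Rbl2, -0.23 to 0.034 for Ccnc, -0.15 to 0.14 for Cdk8, -0.27 to 0.027 for Ccnt1 and -0.069 to 0.00091 for Cdk13. The cause of these changes was not tested, beyond the smaller number of libraries or larger number of genes in a fit. Depth limits Ccnd1, Cdkn1c, Cdkn2a and Cdkn2b, with at most 28 counts in any library.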
